A study of Mus musculus with 32 samples.

Results

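Genes of the inflammasome and of inflammatory cell death were followed through the tumors and lungs of *Clic4* knockout (KO) and wildtype (WT) mice. They were listed by name as *Nlrp3*, *Aim2*, *Nod2*, *Zbp1*, *Casp1*, *Casp4*, *Gsdmd*, *Mlkl*, *Il18* and *Il18bp*, and are 10 of the 29511 gene rows in the count table. All 10 passed the filter on low counts in every comparison made here. Bulk mRNA sequencing covered 32 samples. Primary tumors were taken 14 days after 6DT1 cells were grafted into the mammary fat pad, 6 from KO and 6 from WT hosts. Lungs came from hosts carrying such a tumor for 14 days (6 KO, 6 WT) and, as controls, from mice with no graft (4 KO, 4 WT). All hosts were virgin female FVB/N mice aged 6 to 8 weeks, with KO and WT animals taken from the same heterozygous crosses. The *Clic4* deletion is constitutive, so it is carried by every host cell type. The 6DT1 line came from a mammary tumor of an MMTV-Myc transgenic mouse and carries intact *Clic4*, so a tumor from a KO host held cancer cells with intact *Clic4* among host cells with the deletion. A single tumor line stands behind all grafts. The study describes the samples of a group as independent animals.

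Inflammasomes are protein complexes that form in the cytosol when a sensor meets a danger signal. NLRP3 responds to many kinds of membrane and ion disturbance, AIM2 binds double-stranded DNA, and both recruit an adaptor that brings caspase-1 into an active form. Caspase-1 cuts pro-IL-18 and pro-IL-1 beta into the secreted cytokines and cuts gasdermin D, whose freed part opens pores in the cell membrane. Caspase-4, known as caspase-11 in mice, binds bacterial lipopolysaccharide in the cytosol and also cuts gasdermin D. NOD2 senses a fragment of the bacterial cell wall and signals to NF-kappaB. ZBP1 binds Z-form nucleic acids and can start necroptosis, in which MLKL breaks the membrane. IL-18 binding protein, the product of *Il18bp*, is a secreted decoy that keeps IL-18 from its receptor, and interferon gamma is a known inducer of it.

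In the GRCm38 build with the GENCODE annotation, *Casp1* (chr9:5298517-5307265) and *Casp4* (chr9:5308828-5336783) are neighbours on the plus strand with 1562 bases between them, and *Casp12* follows 8646 bases beyond *Casp4*. *Nod2* (chr8:88647315-88688474, plus strand), *Nlrp3* (chr11:59541568-59566956, plus strand), *Gsdmd* (chr15:75862327-75867408, plus strand) and *Zbp1* (chr2:173206612-173218923, minus strand) overlap no other gene. *Il18bp* (chr7:102014885-102018690, minus strand) lies across from part of *Numa1*, *Il18* (chr9:50554827-50581840, plus strand) across from *Bco2* and *Tex12*, *Aim2* (chr1:173350879-173466040, plus strand) across from *Cadm3*, and *Mlkl* (chr8:111311797-111338177, minus strand) across from *Gm45712*. The library kit keeps strand, but the strand setting of the counting is not given in the sources used here. *Numa1* had a log2 difference of -0.03 between KO and WT tumors (SE 0.05, adjusted p = 0.829), *Cadm3* 0.36 (SE 0.39, adjusted p = 0.714) and *Bco2* -0.20 (SE 0.36, adjusted p = 0.849).

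Promoters were read from RefSeq on GRCm38.p6 as the 250 bases before a transcript start plus the 50 bases after it, and 8 of the 10 genes had such an entry. The upstream 250 bases are printed for the genes among them that were higher in KO tumors and for *Casp1*, the neighbour of *Casp4*, with 1 of the 2 listed starts shown for *Casp4* and *Nlrp3*, so that the 2 caspase promoters can be read together. Capitals mark matches to the NF-kappaB letters, GGG and TTTCC with any 2 bases between them, on either strand.
Casp4, chr9:5308599-5308848, plus strand: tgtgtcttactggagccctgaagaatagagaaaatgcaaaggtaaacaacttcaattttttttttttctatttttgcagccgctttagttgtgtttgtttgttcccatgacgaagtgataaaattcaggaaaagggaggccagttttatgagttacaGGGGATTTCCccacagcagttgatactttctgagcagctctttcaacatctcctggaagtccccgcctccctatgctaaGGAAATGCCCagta
Casp1, chr9:5298267-5298516, plus strand: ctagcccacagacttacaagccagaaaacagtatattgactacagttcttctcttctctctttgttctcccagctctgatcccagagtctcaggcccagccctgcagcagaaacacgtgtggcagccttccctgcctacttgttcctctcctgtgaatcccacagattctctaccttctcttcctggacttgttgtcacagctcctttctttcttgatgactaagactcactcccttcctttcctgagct
Nod2, chr8:88647097-88647346, plus strand: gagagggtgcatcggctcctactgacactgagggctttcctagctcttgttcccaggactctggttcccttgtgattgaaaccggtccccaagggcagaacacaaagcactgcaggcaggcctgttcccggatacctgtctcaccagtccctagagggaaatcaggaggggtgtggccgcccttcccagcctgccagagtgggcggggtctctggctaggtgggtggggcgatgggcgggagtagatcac
Nlrp3, chr11:59541319-59541568, plus strand: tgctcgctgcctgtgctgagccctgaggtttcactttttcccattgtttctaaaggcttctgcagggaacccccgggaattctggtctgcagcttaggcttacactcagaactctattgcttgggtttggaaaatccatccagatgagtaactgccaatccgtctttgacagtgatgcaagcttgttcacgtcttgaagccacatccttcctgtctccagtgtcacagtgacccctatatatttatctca
Il18bp, chr7:102018233-102018482, minus strand: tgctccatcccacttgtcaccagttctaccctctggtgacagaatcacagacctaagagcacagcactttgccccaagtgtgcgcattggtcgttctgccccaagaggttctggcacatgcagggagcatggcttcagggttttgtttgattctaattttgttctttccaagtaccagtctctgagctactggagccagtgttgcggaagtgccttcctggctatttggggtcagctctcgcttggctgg
Only *Casp4* held a match among the 8 genes. Its matches, GGGGATTTCC and the minus-strand GGAAATGCCC, began 93 and 14 bases before the start, and 1.61% of 32534 distinct promoters of the same length held this motif. The interferon-stimulated response element (GAAA, any 2 bases, GAAA), present in 3.45% of all promoters, and the gamma-activated site (TTC, any 3 bases, GAA), present in 8.33%, were not found in these windows of the 8 genes on either strand. A match is a run of letters and not a measured binding site.

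Library depth ran from 4446323 to 8318711 counts per sample, with a median of 5384934. *Clic4* separated the labelled genotypes: lungs of KO mice had 206 to 280 CPM, the normalized read count relative to library size, and lungs of WT mice 590 to 857 CPM, where the deletion removes 1 exon with its surroundings and reads on the other exons are still counted. In the tumors *Clic4* stood at 245 to 281 CPM in KO hosts and 293 to 321 in WT hosts (log2 difference -0.21, SE 0.05, adjusted p = 0.0343). The 7 lung epithelial markers summed to 2.27 to 8.44 CPM in the tumors and to between 15147 and 17577 CPM in the lungs. The keratin genes *Krt8* and *Krt18* averaged 332 and 174 CPM in the tumors and 85.7 and 51.7 CPM in the lungs. They were the only 2 of 7 mammary epithelial markers higher in WT tumors than in WT lungs at 14 days. The other 5 were lower, among them *Cdh1* and *Epcam*. Over all tumors and lungs *Cdh1* averaged 19.5 and 228 CPM, and *Epcam* 10.6 and 34.6 CPM. Of all genes 37.1% were higher and 38.4% lower in that comparison. The structural RNA genes *Rn7s1*, *Rn7s2* and *Rn7sk* held between 8.33 and 14.1% of counts and 58.1 to 70.2% of the FPKM total, which lowers the FPKM of all other genes by an amount that differs between samples. CPM, scaled over all samples, is therefore used to compare samples, and FPKM, which divides by transcript length, to compare genes.

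The tumors answer the question whether the host genotype alters these genes where the cancer cells are the same. In KO tumors 5 of the 10 genes were higher at an adjusted p under 0.05 by edgeR, and none was lower, where 2.02% of the 13830 genes tested were higher and 2.51% were called in either direction. The 5 were *Zbp1*, *Nod2*, *Il18bp*, *Casp4* and *Nlrp3*, with rises of 1.64 to 3.03 times. They cover a nucleic acid sensor, 2 sensors of the NOD-like family, the lipopolysaccharide-binding caspase and the decoy of IL-18, while *Casp1*, *Gsdmd*, *Mlkl*, *Aim2* and *Il18* did not pass. The median log2 difference was 0.56 over the 10 genes and -0.01 over all genes tested, and 8 of the 10 were above 0 against 47.7% of all genes. The groups did not overlap for *Zbp1*, *Nod2*, *Il18bp* and *Casp4*, where KO tumors lay wholly above WT tumors for 1.51% of the genes with a mean of at least 10 counts. The 10 genes were chosen with earlier results of these data known. Their distance from the shares over all genes is therefore a description and not a test of the set.

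**Figure D1:**
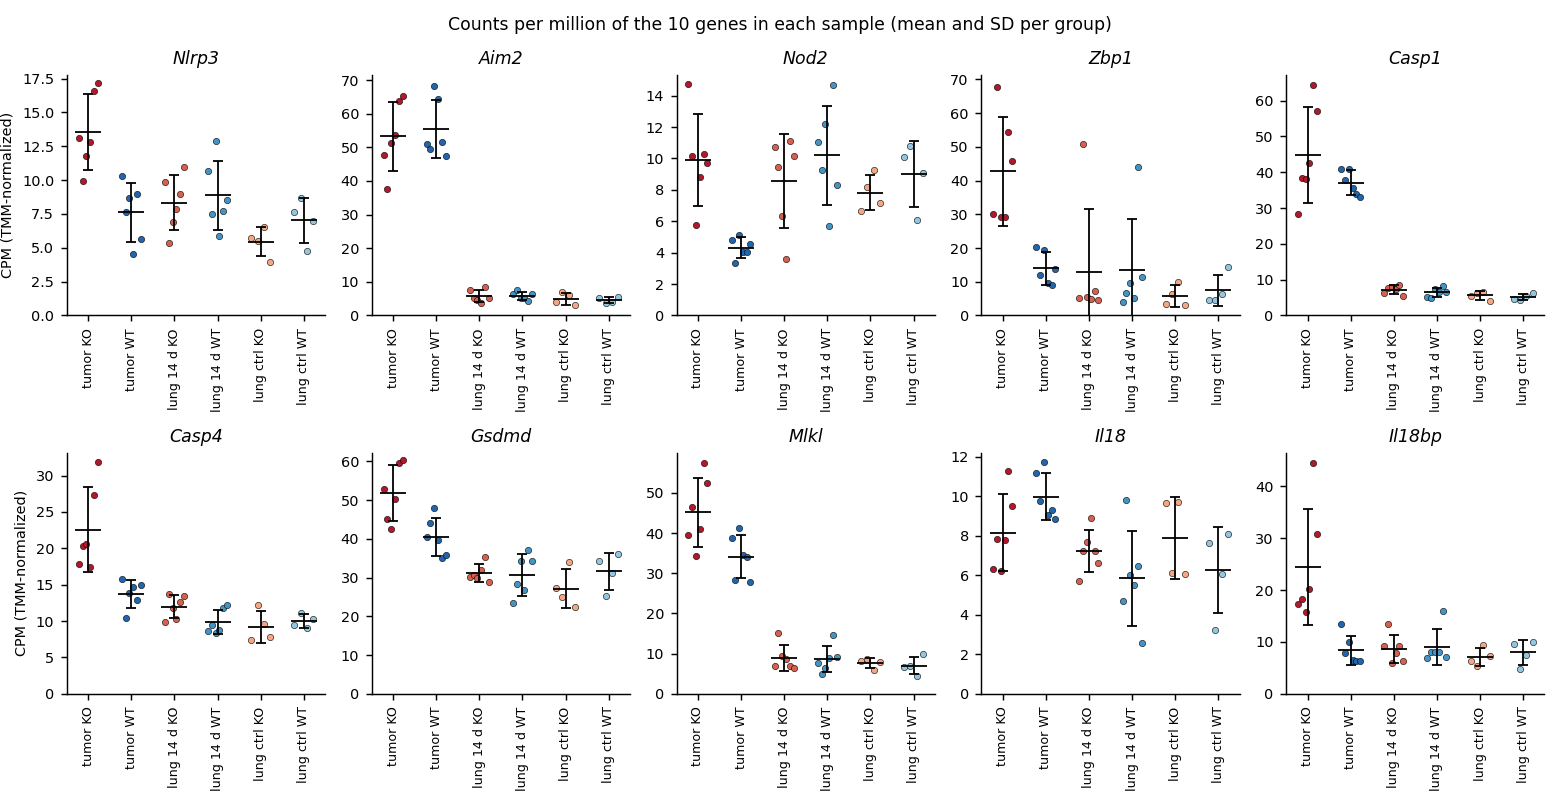
Normalized CPM (y axis, from 0) of each gene in each of the 32 samples (points), by group (x axis), with the group mean and SD as bars (n = 6 per tumor and 14-day lung group, n = 4 per control lung group). KO tumors lie above WT tumors without overlap for Nod2, Zbp1, Casp4 and Il18bp, and 1 lung in each 14-day group stands far above the others for Zbp1.

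Among the sensors, *Zbp1* had the largest rise. Its lowest, median and highest values were 29.2, 37.9 and 67.8 CPM in KO tumors and 8.98, 13.0 and 20.3 CPM in WT tumors. Every KO tumor exceeded every WT tumor (log2 difference 1.60, SE 0.25, adjusted p = 0.00210). *Nod2* ran from 5.76 through a median of 9.91 to 14.8 CPM in KO tumors and from 3.32 through 4.29 to 5.15 CPM in WT tumors. Its groups were also apart, with the lowest KO tumor just above the highest WT tumor (log2 difference 1.19, SE 0.20, adjusted p = 0.00361). These are low levels, between 17 and 64 counts per tumor. *Nlrp3* ran from 9.92 through 13.0 to 17.1 CPM in KO tumors and from 4.52 through 8.13 to 10.3 CPM in WT tumors. The ranges met at 1 tumor on each side, since 5 of the 6 KO tumors lay above all WT tumors (log2 difference 0.82, SE 0.19, adjusted p = 0.0330). On the FPKM scale the *Nlrp3* groups overlapped broadly and the difference was 0.35 on log2(FPKM + 1) by limma, with an adjusted p of 0.534. *Aim2*, the DNA sensor, had 37.6 to 65.4 CPM in KO tumors and 47.5 to 68.4 CPM in WT tumors, and the log2 difference was -0.06 (SE 0.13, adjusted p = 0.889).

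The 2 inflammatory caspases sit side by side in the genome and differed in their values. *Casp4* had a lowest, median and highest of 17.4, 20.5 and 31.9 CPM in KO tumors against 10.4, 14.3 and 15.8 CPM in WT tumors. No KO tumor fell within the WT range (log2 difference 0.72, SE 0.16, adjusted p = 0.0221). *Casp1* ran from 28.4 through 40.4 to 64.3 CPM in KO tumors and from 33.0 through 36.8 to 41.0 CPM in WT tumors. Its lowest KO tumor lay below every WT tumor and its log2 difference was 0.27 (SE 0.15, adjusted p = 0.428). Whether the difference of *Casp4* exceeded that of *Casp1* was not tested. *Casp12*, the next gene along, rose slightly in KO tumors (log2 difference 0.35, SE 0.08, adjusted p = 0.0314), a call kept in 3 of the 12 fits without 1 tumor.

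The executioners of membrane rupture did not pass by edgeR. *Gsdmd* ran from 42.6 through 51.7 to 60.3 CPM in KO tumors and from 35.0 through 40.1 to 48.0 CPM in WT tumors. Of the 6 KO tumors, 4 exceeded all WT tumors, and the log2 difference was 0.35 (SE 0.10, adjusted p = 0.0861). DESeq2, which called the same 5 genes as edgeR, also called *Gsdmd* (adjusted p = 0.0383). *Mlkl* ran from 34.4 through 43.8 to 57.3 CPM in KO tumors and from 27.9 through 34.3 to 41.2 CPM in WT tumors. Of its KO tumors 3 lay inside the WT range, with a log2 difference of 0.40 (SE 0.13, adjusted p = 0.129).

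The cytokine and its decoy went in opposite directions in their estimates. *Il18bp* ran from 15.7 through 19.2 to 44.5 CPM in KO tumors and from 6.26 through 7.12 to 13.4 CPM in WT tumors. The groups did not overlap (log2 difference 1.55, SE 0.27, adjusted p = 0.00452). *Il18* ran from 6.21 through 7.82 to 11.3 CPM in KO tumors and from 8.86 through 9.53 to 11.7 CPM in WT tumors. These overlapped, and its log2 difference of -0.28 did not pass (SE 0.16, adjusted p = 0.416). The *Il18bp* to *Il18* ratio, formed from FPKM after the values of both genes had been seen, is given as a description. It lay between 0.974 and 1.64 in KO tumors and between 0.285 and 0.502 in WT tumors. In the lungs it ran from 0.315 to 0.780 (KO, 14 days), 0.343 to 1.16 (WT, 14 days), 0.271 to 0.508 (KO, control) and 0.514 to 0.600 (WT, control). The 5 KO tumors above 1 and the 1 just below it had no counterpart among the WT tumors.

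**Figure D2:**
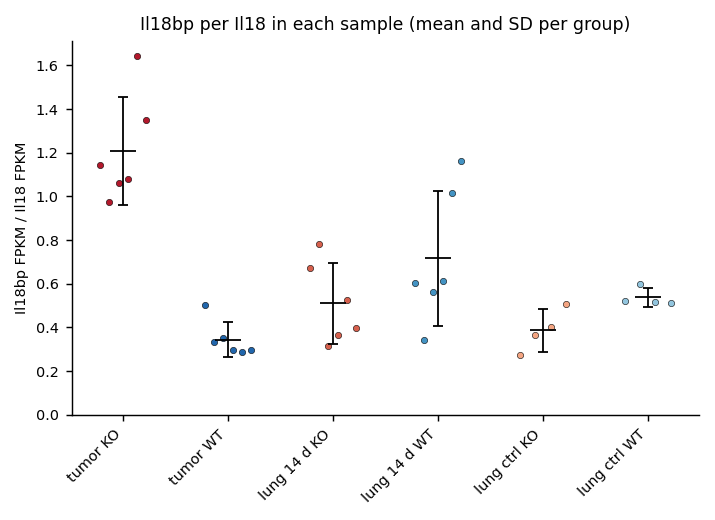
Ratio of Il18bp FPKM to Il18 FPKM (y axis, from 0) in each sample (points) by group, with mean and SD. The 6 KO tumors (0.974 to 1.64) sit above the 6 WT tumors (0.285 to 0.502).

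The calls of 3 genes did not depend on any single tumor: *Zbp1*, *Nod2* and *Il18bp* passed in all 12 fits that left out 1 tumor. The call of *Casp4* was lost without KO tumor 5 (adjusted p = 0.0679), KO tumor 6 (0.0568), WT tumor 2 (0.0516), WT tumor 3 (0.0552) or WT tumor 5 (0.0748). That of *Nlrp3* was lost without KO tumor 1 (0.0543), 5 (0.0946) or 6 (0.0997) or WT tumor 2 (0.0665), 3 (0.0639), 4 (0.0613) or 5 (0.0645), and *Gsdmd* passed without KO tumor 3 (0.0453). KO tumors 5 and 6 held the highest values of *Nlrp3*, *Casp1*, *Casp4*, *Gsdmd*, *Mlkl* and *Il18bp*. With a further limit of 2-fold, used by the study for its tumor lists, *Zbp1*, *Nod2* and *Il18bp* remained, where 1.01% of all genes were higher by both limits.

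**Figure D3:**
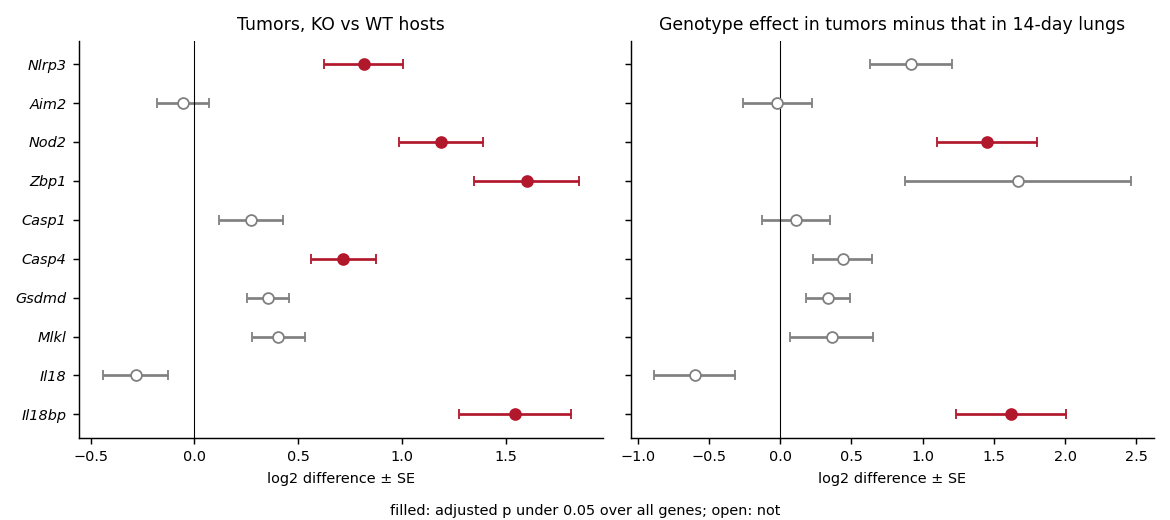
Log2 differences with SE (x axis) of the 10 genes (y axis) for KO against WT tumors (left) and for that difference minus the same difference in 14-day lungs (right); filled points passed an adjusted p of 0.05 over all genes. Zbp1, Il18bp and Nod2 lie farthest to the right in both panels, and Il18 lies left of 0 in both.

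Genes around the 10 were taken from 6 lists that hold 64 genes in all (other sensors and the adaptor, IL-1 family, other caspases and gasdermins, necroptosis, cytosolic DNA sensing, interferon signaling). The lists too were chosen with earlier results of these data known, so their counts beside the shares over all genes are a description. In the tumors 55 were tested, of which 13 were higher in KO hosts and 0 lower, with a median log2 difference of 0.30. At an unadjusted p under 0.05 there were 34 of the 55, against 15.5% of all genes. Of these 32 were higher, 1 was lower, and *Trex1* has 2 rows of the table with opposite signs. DESeq2 called 17 of the 55 (3.97% of all genes) and limma on log2(FPKM + 1) called 6 (1.45% of all genes), of which 5 belonged to interferon signaling. Interferon signaling had the most, with 6 of 12 tested. They included *Irf1* (log2 difference 1.16, SE 0.10, adjusted p = 4.33e-05), *Socs1* (1.497, SE 0.23, adjusted p = 0.00188) and *Jak2* (0.50, SE 0.08, adjusted p = 0.00163). JAK2 is a kinase of the interferon gamma receptor, IRF1 is a transcription factor that interferon gamma induces, and SOCS1 is a feedback inhibitor of JAK kinases. *Irf8* (0.72, adjusted p = 0.00452) and *Stat2* (0.99, adjusted p = 0.0135) were also among them. *Irf7*, an interferon-induced factor, had 0.60 (SE 0.31, adjusted p = 0.384). *Ifng*, the gene of interferon gamma itself, was on the list but not among the 12 tested. Its receptor chains *Ifngr1* (0.27, adjusted p = 0.309) and *Ifngr2* (0.21, adjusted p = 0.363) did not pass, nor did *Jak1* (0.08, adjusted p = 0.505).

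Of 12 other sensors and partners 2 rose, among them *Nod1* (0.77, SE 0.13, adjusted p = 0.00436), the sister of *Nod2* that senses another cell wall fragment. *Pycard*, the adaptor between sensor and caspase-1, had a log2 difference of 0.57 and did not pass (adjusted p = 0.116). In the IL-1 family 3 of 8 rose. Outside the rule for naming genes and chosen after their values were seen, both chains of the IL-18 receptor were among them, *Il18r1* (0.96, adjusted p = 0.0265) and *Il18rap* (0.70, adjusted p = 0.0171), as was the alarmin *Il33* (1.15, adjusted p = 0.0161). *Birc3*, a ubiquitin ligase that restrains RIPK1, was the 1 gene of 10 in the necroptosis list to rise (0.44, SE 0.08, adjusted p = 0.00844), and its difference was 0.08 at the lowest among the other settings tried. *Ripk3*, the kinase that activates MLKL, had 0.29 (adjusted p = 0.279). Of 7 other caspases and gasdermins 1 rose, and 0 of 6 DNA sensing genes did by edgeR, where 4 had an unadjusted p under 0.05, DESeq2 called 1 and limma 0. The 6 interferon signaling genes, *Nod1* and *Birc3* passed in all 12 fits without 1 tumor, *Il33* in 11, *Il18rap* in 9 and *Il18r1* in 6.

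Markers of immune cells also differed between these tumors, and in bulk tissue more cells of a type and more RNA per cell cannot be told apart. Of the tested markers, 2 of 8 for T cells (*Cd3d*, log2 difference 1.46, and *Cd3g*, 1.31), 1 of 7 for NK cells (*Klrk1*, 1.18), 1 of 7 for dendritic cells (*Itgax*, 1.00) and 1 of 10 for macrophages (*C1qb*, 0.73) were higher in KO tumors, against 2.02% of all genes. An unadjusted p under 0.05 was found for 15.5% of all genes, the share to set beside the counts that follow. At an unadjusted p under 0.05 there were 8 of 8 T cell, 3 of 7 NK cell, 4 of 7 dendritic cell and 5 of 10 macrophage markers, all higher, and the median log2 differences of the 4 lists were 1.01, 0.76, 0.56 and 0.41. By edgeR none of the 5 neutrophil, 5 endothelial, 6 fibroblast, 4 erythroid, 4 adipocyte, 5 mammary epithelial or single tested muscle and lung epithelial markers passed, where 1, 0, 1, 2, 4, 2, 0 and 1 had an unadjusted p under 0.05, all of them higher in KO tumors except the 2 mammary epithelial keratin genes *Krt18* (log2 difference -0.24, adjusted p = 0.164) and *Krt8* (-0.19, adjusted p = 0.299), and no B cell marker could be tested. Of these 5 calls that of *Itgax* held in all 12 fits without 1 tumor, and those of *Cd3g*, *Klrk1*, *C1qb* and *Cd3d* in 5, 4, 3 and 2. Over the 12 marker lists with tested genes DESeq2 called 7 (3.97% of all genes) and limma 2 of 63 (1.45% of all genes). DESeq2 added the adipocyte genes *Plin1* (log2 difference 1.15, adjusted p = 0.0326) and *Cidec* (0.94, adjusted p = 0.0326), and adipocyte markers summed to 95.9 to 391 CPM in KO tumors and 84.4 to 165 CPM in WT tumors. T cell markers summed to 39.2 to 70.5 CPM in KO tumors and 14.3 to 62.9 CPM in WT tumors, where the highest was WT tumor 2, whose B cell markers also summed to 37.1 CPM against 0.713 to 4.38 CPM in the other 11 tumors. NK cell markers summed to 37.4 to 57.8 against 21.0 to 56.7 CPM. Those without a low unadjusted p had log2 differences of 0.76 (*Klrb1c*), 0.38 (*Prf1*), 0.20 (*Ncr1*) and -0.23 (*Eomes*). Dendritic cell markers summed to 63.6 to 87.5 against 39.5 to 59.0 CPM, with no overlap. *Itgax* had the highest mean of these 7 markers in the tumors, 32.6 CPM. The dendritic cell markers *Zbtb46* (0.15), *Flt3* (-0.07) and *Xcr1* (-0.33) had no low unadjusted p. Macrophage markers summed to 1427 to 2357 against 945 to 1974 CPM, with KO tumors 5 and 6 the highest of the 12. The 8 neutrophil markers summed to 19.8 to 71.5 CPM in KO tumors and 22.6 to 49.0 CPM in WT tumors, and of these *Ly6g* was at 0 in all 12 tumors and in 13 of the 20 lungs. The part of these cell types in the differences of the 10 genes was not tested.

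The order of the genes by level was read from FPKM, which accounts for length. In WT tumors *Aim2* was the most abundant at 55.0 ± 8.67 FPKM (SD, n = 6), and *Nod2* the least at 1.03 ± 0.17. Between them *Casp1* had 28.6 ± 3.31, *Gsdmd* 25.7 ± 3.52, *Il18* 19.9 ± 2.85, *Mlkl* 19.6 ± 3.43, *Casp4* 12.9 ± 1.52, *Zbp1* 12.7 ± 4.79, *Il18bp* 6.99 ± 2.55 and *Nlrp3* 3.24 ± 1.58 FPKM. *Casp1* and *Gsdmd*, *Il18* and *Mlkl*, and *Casp4* and *Zbp1* were neighbours whose means differed by less than their SD. In KO tumors *Aim2* again led at 50.8 ± 10.4 FPKM and *Zbp1* stood next, at 34.0 ± 10.8, with *Casp1* at 33.3 ± 10.0 and *Gsdmd* at 31.7 ± 4.54. The last 3 differed by less than their SD. *Il18bp*, at 19.6 ± 8.92 FPKM, stood above *Il18*, at 15.7 ± 3.77, by less than the SD of *Il18bp* but more than that of *Il18*. In lungs the order changed: *Gsdmd* led in all 4 lung groups with means of 17.5 to 20.3 FPKM and *Il18* followed with 12.03 to 16.1, while *Nod2* and *Nlrp3* were lowest in each. In control KO lungs *Gsdmd* (17.5 ± 3.29) and *Il18* (16.1 ± 4.26) differed by less than their SD. So did *Il18* (12.03 ± 4.92) and *Zbp1* (10.8 ± 12.2) in WT lungs at 14 days. In control WT lungs *Il18* (12.8 ± 4.59) exceeded *Casp4* (10.4 ± 1.16) by less than the SD of *Il18*.

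**Figure D4:**
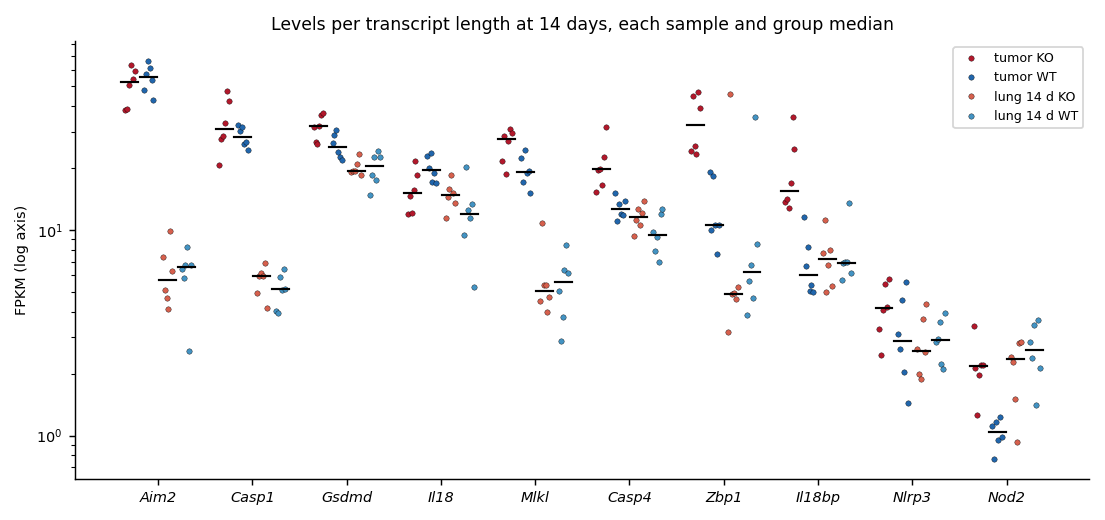
Deposited FPKM (y axis, log axis) of each gene (x axis, ordered by the mean in WT tumors) in each tumor and 14-day lung (points, n = 6 per group), with the group median as a line. Aim2, Casp1 and Mlkl lie far lower in lungs than in tumors, and Nod2 is lowest in the WT tumors.

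Set against the 14-day lungs of WT hosts, WT tumors differed in most genes: 75.5% of the 16115 genes tested were called, 37.1% as higher and 38.4% as lower in tumor. Of the 10 genes 7 were called, 6 as higher and 1 as lower. *Aim2* (log2 difference 3.24, SE 0.17, adjusted p = 2.80e-15), *Casp1* (2.52, SE 0.17, adjusted p = 3.94e-13) and *Mlkl* (1.98, SE 0.21, adjusted p = 2.78e-09) were several times higher in tumor. *Il18* (0.78), *Casp4* (0.48) and *Gsdmd* (0.40) were higher by less. The genes on the opposite strand of *Aim2* and *Il18* were also higher in tumor, *Cadm3* by 2.20 (adjusted p = 2.45e-05, 12 to 64 counts in WT tumors) and *Bco2* by 1.92 (adjusted p = 0.000558, 7 to 26 counts), and their part in the values of *Aim2* and *Il18* was not tested. *Nod2* was lower in the tumor (-1.24, SE 0.25, adjusted p = 0.000103). It stood at 3.32 to 5.15 CPM in WT tumors and 5.68 to 14.7 CPM in WT lungs without overlap, whereas KO tumors, at 5.76 to 14.8 CPM, spanned about the same range as the lungs. *Zbp1* (0.05), *Il18bp* (-0.10) and *Nlrp3* (-0.21) did not pass. Of the 10 genes 4 had groups that did not overlap, against 55.9% of all genes with a mean of at least 10 counts.

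The lungs were sampled to ask whether a distant tumor changes them before metastasis, and whether the host genotype matters there. None of the 10 genes passed in any lung comparison by edgeR, and no lung comparison separated the groups of any of them. In KO lungs at 14 days against control, 0.0374% of the 16029 genes tested were called and 2 of the 10 had an unadjusted p under 0.05 (8.64% of all genes). In WT lungs 0 genes of 16029 were called, 0 of the 10 had an unadjusted p under 0.05 and 11.8% of all genes did. KO against WT called 0.0936% of genes at 14 days and 0.0187% in control lungs, and the interaction of genotype and tumor called 0.00624%, with 0 of the 10 at an unadjusted p under 0.05 in each, where 8.34%, 11.6% and 8.53% of all genes were. DESeq2 and limma also called 0 of the 10 in each of the 5 lung comparisons. Over all genes, in the same order, DESeq2 called 0.43, 0.487, 0.443, 0.268 and 0.0998%, and limma 0, 0, 0.025, 0.00624 and 0%. Of the 57 tested genes of the 6 pathway lists edgeR called 0 in each as well. In KO lungs at 14 days against control, 9 of the 57 had an unadjusted p under 0.05 and neither DESeq2 nor limma called any. For scale, the groups did not overlap for 2.23% of genes in KO lungs at 14 days against control, 2.93% in WT lungs, 0.505% for genotype at 14 days and 7.43% for genotype in control lungs.

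*Nlrp3* and *Casp4* were the 2 genes with a low unadjusted p in KO lungs. *Nlrp3* was at 5.75, 5.52, 6.53 and 3.97 CPM in the 4 control KO lungs and had a lowest, median and highest of 5.36, 8.40 and 10.99 CPM at 14 days. The log2 difference was 0.61 (SE 0.23, unadjusted p = 0.0148, adjusted p = 0.422), and 5 of the 6 lungs at 14 days lay above all controls. In WT hosts *Nlrp3* was at 7.65, 8.64, 4.79 and 6.98 CPM in controls and at 5.86 to 12.9 CPM at 14 days, with a log2 difference of 0.37 (SE 0.22, adjusted p = 0.526). The interaction, which tests whether the genotypes differed in this response, was 0.25 (SE 0.32, adjusted p = 0.863). *Casp4* was at 7.42, 12.2, 9.55 and 7.75 CPM in control KO lungs and ran from 9.87 through 12.3 to 13.7 CPM at 14 days. Its log2 difference was 0.39 (SE 0.15, unadjusted p = 0.0180, adjusted p = 0.441). In WT lungs it was 0.01 (SE 0.15, adjusted p = 0.994), a value whose sign changed with the settings, and the interaction was 0.38 (SE 0.21, adjusted p = 0.652). *Casp1* had 0.36 (SE 0.18, adjusted p = 0.598) in KO lungs and 0.34 (SE 0.18, adjusted p = 0.476) in WT lungs. Its values stayed between 3.97 and 8.58 CPM in all lungs. Neutrophil markers, which reached 43.8 to 378 CPM in sum in KO lungs and 92.7 to 334 CPM in WT lungs at 14 days against 53.3 to 102 CPM in the controls, had no member that passed, and their part in the values of the 10 genes was not tested.

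The lung values of *Zbp1* were dominated by 2 samples. In KO lungs at 14 days, replicate 2 had 50.9 CPM and the other 5 had 4.52 to 7.21 CPM. In WT lungs at 14 days, replicate 5 had 44.1 CPM and the other 5 had 4.05 to 11.5 CPM. The control lungs were at 3.34, 6.29, 10.0 and 3.02 CPM (KO) and at 4.56, 4.68, 6.27 and 14.3 CPM (WT), so the other 18 lungs together spanned 3.02 to 14.3 CPM. With both lungs kept, the log2 difference of *Zbp1* at 14 days against control was 1.17 (SE 0.78, adjusted p = 0.715) in KO hosts and 0.89 (SE 0.74, adjusted p = 0.672) in WT hosts. Without them, a setting chosen after seeing the data, it was -0.07 (adjusted p = 0.973) and 0.02 (adjusted p = 0.987). The same lungs were highest for *Irf7*, at 164 and 153 CPM against 9.07 to 83.2 CPM in the other 18. They also held the highest *Mlkl* and *Il18bp* of their groups. Their summed T cell markers (50.1 and 58.7 CPM) and NK cell markers (37.9 and 82.3 CPM) lay within the ranges of the other lungs, but 4 of 13 marker lists held one of them outside the other 19. The KO lung had the lowest neutrophil sum (43.8 CPM, others 53.3 to 378), and the WT lung had the highest adipocyte sum (66.4 CPM, others 16.2 to 55.0) and the lowest dendritic cell (183 CPM, others 201 to 262) and erythroid sums (3049 CPM, others 3055 to 11672). Some lung must be the lowest and some lung the highest for every list, and no expected count was worked out. The part of these cell types in the *Zbp1* values was not tested. KO tumor 2 had the highest *Zbp1* of the tumors, but the labels do not say whether the tumor and lung that share a number came from 1 mouse.

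**Figure D5:**
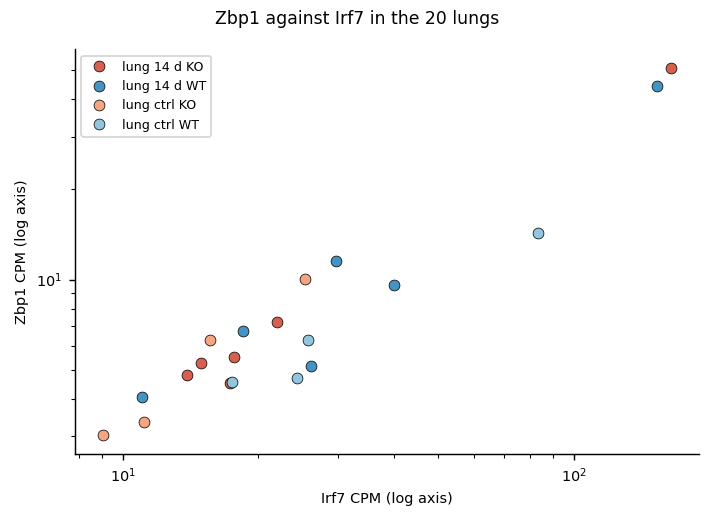
Zbp1 (y axis, CPM, log axis) against Irf7 (x axis, CPM, log axis) in the 20 lungs, colored by group. The KO lung at 50.9 CPM and the WT lung at 44.1 CPM stand apart from the other 18 on both axes.

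Whether the genotype difference was larger in tumors than in lungs was tested over the 24 samples of day 14. Of the 10 genes 2 passed, *Il18bp* (log2 difference of differences 1.62, SE 0.39, adjusted p = 0.0477) and *Nod2* (1.45, SE 0.35, adjusted p = 0.0490), where 0.707% of 16115 genes were called and 0.558% with a larger value in tumor. Both lay just under the threshold, and neither passed with RLE scaling (0.0533 and 0.0538), with no filter or by limma. In the fits that left out 1 of the 24 samples, the adjusted p of *Il18bp* ran from 0.0191 to 0.1005 and it passed only without KO lung 2, WT lung 1, KO tumor 1, 2, 3 or 4, or WT tumor 1. That of *Nod2* ran from 0.0263 to 0.0974 and it passed only without KO lung 5, WT lung 4, KO tumor 3 or WT tumor 6. Each call was therefore lost without any 1 of the remaining samples. *Zbp1* had the largest estimate, 1.67, with an SE of 0.79 (adjusted p = 0.443), but it turned on the 2 lungs described above, with 2.91 (adjusted p = 0.0193) without KO lung 2 and 0.81 (adjusted p = 0.740) without WT lung 5. These were the ends of its range with 1 sample left out, and it passed in 1 of the 24 fits. *Nlrp3* had 0.92 (SE 0.29, adjusted p = 0.176), *Casp4* 0.44 (SE 0.21, adjusted p = 0.445) and *Casp1* 0.11 (SE 0.24, adjusted p = 0.913). Of 58 tested genes in the 6 pathway lists 4 passed, with a larger value in tumor for each: *Irf1* (1.13, adjusted p = 0.000218), *Nod1* (0.83, adjusted p = 0.0183), *Jak2* (0.41, adjusted p = 0.0290) and *Il33* (1.13, adjusted p = 0.0450). They passed in 24, 23, 14 and 5 of the 24 fits without 1 sample. DESeq2 called all 4 (1.22% of all genes), and limma called only *Irf1* of the 58 (0.435% of all genes).

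How the 10 genes varied together within groups is given as a description, since all pairs share the same libraries. After subtracting group means, the 45 pairs had a median Pearson r of 0.53 over the 12 tumors (range -0.14 to 0.93, 43 above 0) and of 0.23 over the 20 lungs (range -0.36 to 0.75, 35 above 0). The most alike pair in tumors was *Il18* with *Il18bp* (r = 0.93), followed by *Casp1* with *Il18* (0.91). So the tumors of a group with more of the cytokine also had more of its decoy. Among all genes with a mean CPM of at least 1, those most like *Il18bp* in tumors were *Il12rb1* (0.94), a chain of the IL-12 receptor, *Lgals8* and *Gm15832* (both 0.94). *Casp4* was most like *Ido1* (0.93), a tryptophan-degrading enzyme, followed by *Gm38148* (0.91) and *RP23-336O18.3* (0.89). For *Zbp1* these were *Usp25* (0.93) and the interferon-induced GTPase genes *Irgm2* (0.91) and *Gbp9* (0.90). *Nod2* was most like *Samd11* (0.97), *Nlrp3* most like *Thbs2* (0.95), *Aim2* most like *Eif3c* (0.97), *Casp1* most like *Lims1* (0.95), *Gsdmd* most like *Axl* (0.92) and *Mlkl* most like *Rap1gap* (0.91). In lungs *Zbp1* was most like *Xaf1* (0.98), *Gbp10* (0.97) and *Gbp3* (0.97), and without the 2 lungs named above the values were 0.92, 0.94 and 0.89. *Casp1* was most like *C920025E04Rik* and *Psmb9* (both 0.86), the latter a subunit of the immunoproteasome. In lungs *Nlrp3* was most like *RP24-180F7.2* (0.85), *Aim2* most like *Thoc6* (0.81), *Nod2* most like *Gm37613* (0.87) and *Casp4* most like *Lmnb1* (0.80). For *Gsdmd* it was *Gm11472* (0.84), for *Mlkl* *Mndal* (0.84), for *Il18* *Nsun4* (0.83) and for *Il18bp* *Ogfr* (0.87).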

How the data were processed

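The authors aligned paired-end reads with STAR to mm10 (GRCm38) and deposited expected counts per gene from RSEM, whole numbers in the file, together with an FPKM table (scaled to mapped reads and transcript length) for all 32 samples. Samples were grouped by the labels. Expected counts were analysed with edgeR 4.0.16 (R 4.3.3; TMM scaling, filterByExpr, glmQLFit and glmQLFTest) in 3 fits: the 12 tumors, the 20 lungs, and the 24 samples of day 14, with 1 mean per group. A call is a Benjamini-Hochberg adjusted p under 0.05 over all genes tested. FPKM was used for levels between genes and, as log2(FPKM + 1) or + 0.1, with limma 3.58.1. Log2 differences are KO minus WT, 14 days minus control, or tumor minus lung. CPM were TMM-scaled over all samples. DESeq2 1.42.0, RLE scaling, a filter of at least 10 counts per sample or none, a replicate block, the study's limits (adjusted p 0.05 and 2-fold in tumors, 0.25 and 1.5-fold in lungs), only the compared groups, and each sample left out were tried. The 10 genes and all lists were chosen with earlier results of these data known. From the lists, up to 8 called genes per comparison with the smallest p were named, and for likeness the 3 genes with the highest r per gene, of which some are given. A called gene of the interferon signaling list is counted but not reported here. Fits were tested on simulated data.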

Additional observations from a re-analysis of the deposited data

Results flagged for a closer look

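Among 60 sets of 4 or 6 values (10 genes in 6 groups), 4 held a value far from the rest of its group, where chance gives about 1 in 20, or 3 of 60. *Zbp1* was 50.9 CPM in KO lung 2 at 14 days (others 4.52 to 7.21) and 44.1 CPM in WT lung 5 at 14 days (others 4.05 to 11.5). *Mlkl* was 15.2 CPM in the same KO lung (others 6.30 to 9.38), and *Il18bp* was 15.9 CPM in the same WT lung (others 6.81 to 8.11). All 4 values came from these 2 lungs, which also had the highest *Irf7* of the 20 lungs.

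The genotype difference passed the edgeR test of a larger value in tumors than in 14-day lungs for *Nod2* (1.45 on the log2 scale, adjusted p = 0.0490) and *Il18bp* (1.62, adjusted p = 0.0477). Both calls were lost with RLE scaling, no filter, limma and on leaving out most single samples.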

How the results depend on the processing

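In the tumors the number of the 10 genes called was 5. It was 3 under the study's limits, 3 with the replicate block, where *Casp4* (adjusted p = 0.0517) and *Nlrp3* (0.0722) lost their calls, and 3 to 6 with 1 tumor left out. DESeq2 called 6 and limma 4. Over all genes edgeR called 347 of 13830, DESeq2 549, the replicate block 257 and limma on log2(FPKM + 1) 200 of 13816. The fits without 1 tumor called 203 to 488 genes, and 1.01% of all genes were higher under the study's limits. For WT tumor against lung 7 were called, where 75.5% of all genes were. With the 2-fold limit that the study used for its tumor lists 4 remained, and the share of all genes under both limits is not given here. For tumor minus lung 2 were called, also by DESeq2 and with at least 10 counts in every sample. It was 1 with the replicate block (*Nod2*, 0.0298, and not *Il18bp*, 0.0693), 0 with RLE scaling, no filter or limma at either pseudocount, and 0 to 2 with 1 sample left out. Over all genes edgeR called 114, DESeq2 197, the filter of at least 10 counts 107 and the replicate block 90. RLE scaling called 100, no filter 81, limma 70 and 52, and the fits without 1 sample 46 to 201. In the lung comparisons 0 were called under every setting tried. The labels do not say that a replicate number marks a shared mouse, and same-numbered samples did not all correlate over 0.1, so the samples were not treated as paired. Their correlations ran from -0.277 to 0.242 over all pairs of groups. Between tumors and lungs of KO hosts they ran from 0.0379 to 0.175, all above 0, and 4 of 6 tumors correlated best with their own number. In WT hosts they ran from -0.0188 to 0.0740, with 2 of 6.

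Signs turned only for differences that had not passed. *Casp4* in WT lungs was -0.12 with the replicate block, -0.11 and -0.12 by limma and -0.0537 without the 2 lungs that stand apart in *Zbp1*. *Zbp1* was -0.0719 without those 2 in KO lungs, its interaction was -0.0945 and -0.12 by limma and -0.0940 without them, and WT tumor against lung was -0.0391 with at least 10 counts in every sample. *Nlrp3* in WT tumor against lung was 0.0412 and 0.0289 by limma.

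With 1 sample left out, *Zbp1* ran from -0.0762 to 1.63 in KO lungs, -1.32 to 0.79 for genotype at 14 days, -0.82 to 0.18 in control lungs, -0.97 to 1.15 for the interaction and -0.14 to 0.88 for WT tumor against lung. *Casp4* ran from -0.0639 to 0.0610 in WT lungs and *Nlrp3* from -0.21 to 0.0373 for genotype at 14 days. *Casp1* ran from -0.11 to 0.13 for the interaction and -0.0231 to 0.20 for tumor minus lung. *Aim2* ran from -0.12 to 0.0223 in tumors and -0.12 to 0.12 for tumor minus lung, and *Il18bp* from -0.32 to 0.11 for WT tumor against lung. The cause was not tested. Depth limits *Nod2* at 17 to 64 counts per tumor, and *Il18*, *Aim2* and *Zbp1*, which had as few as 15, 16 and 16 counts in single lungs.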
